A study of Danio rerio with 18 samples.

Results

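The genes described here encode the proteins that zebrafish liver uses to build and dress lipoproteins: the apolipoprotein B genes apobb.1 and apobb.2, the apolipoprotein A-I genes apoa1a and apoa1b, apoa2, the apolipoprotein E genes apoea and apoeb, apoc1, and mttp. They were chosen by symbol from a list of 10, and 9 of the 10 matched a gene ID among 32105 IDs in the deposited tables. No ID carried the symbol apoba. The ID ENSDARG00000042780, named APOB in the names table, is given beside the others but is not counted among them, because the table does not tie it to apoba. All 9 passed the filter on low counts that left 17048 genes for testing.

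Lipoproteins are particles with a core of triglyceride and cholesteryl ester under a shell of phospholipid and protein, by which liver and intestine send lipid into the blood. Apolipoprotein B is the structural protein of very low density lipoproteins and stays with the particle, and the transfer protein encoded by mttp loads it with lipid in the endoplasmic reticulum. Apolipoproteins of the A, C and E families are small, move between particles, and act as enzyme cofactors, inhibitors or receptor ligands.

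Ribosomal RNA was removed from total RNA of dissected livers, and the rest sequenced, from ABNYU zebrafish larvae at 120 h after fertilization. All larvae came from crosses between carriers of uhrf1-hi272 and carried Tg(fabp10a:CAAX-EGFP), a transgene that marks hepatocytes through the promoter of a hepatocyte gene. uhrf1 encodes a protein needed to maintain DNA methylation after replication. The groups were larvae labelled control in 0.5% DMSO (4 libraries), uhrf1-hi272 homozygotes labelled mutant in 0.5% DMSO (5 libraries), and the same genotype labels in 20 µM palbociclib with 0.5% DMSO (4 control and 5 mutant libraries). Palbociclib, called PD by the submitters, inhibits the cell cycle kinases CDK4 and CDK6. Treatment began at 48 h, and each library pooled livers of 1 genotype, with 15 to 20 livers dissected. The series title calls the controls siblings and its design text calls them wild type. Whether replicate pools go back to different clutches is not stated, and p-values cover the spread between pools alone, which may be technical.

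Total counts per library ran from 4141600 to 5199301 in control DMSO and from 2467926 to 3618445 in mutant DMSO libraries, without overlap. They ran from 3400255 to 4764175 in control palbociclib and from 2863560 to 4056715 in mutant palbociclib libraries. In DMSO, uhrf1 itself was not lower in the libraries labelled mutant. Its mean over the 4 control libraries was 37.8 ± 7.50 (SD) counts per 1e6 counts (CPM), and over the 5 mutant libraries 46.5 ± 7.55 (SD) (log2 fold change 0.29 ± 0.16 SE, edgeR adjusted p = 0.223). In palbociclib its mean was 48.3 ± 7.75 (SD) CPM in control and 41.0 ± 6.82 (SD) CPM in mutant libraries, and the groups overlapped. The genotype therefore rests on the labels. Hepatocyte markers were abundant in every library. A fixed list of hepatocyte genes, which holds no apolipoprotein, took 4.38 to 5.11% of counts in control DMSO, 2.01 to 2.96% in mutant DMSO, 2.33 to 4.34% in control palbociclib and 2.65 to 3.76% in mutant palbociclib libraries. Muscle genes, from tissue that should not be in liver, took 2.86 to 4.84%, 4.43 to 6.31%, 4.2 to 6.26% and 5.2 to 6.15% in the same order, with all 21 muscle markers detected in all 18 libraries. Skin genes took 0.479 to 0.83%, 0.724 to 1.06%, 0.707 to 1.05% and 0.856 to 1.03%, and intestinal genes 0.151 to 0.227%, 0.209 to 0.312%, 0.195 to 0.296% and 0.24 to 0.294%. One control DMSO library, replicate 2, had the lowest hepatocyte share (4.38%) and the highest muscle share (4.84%) of its group.

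In DMSO, the genes of the major liver apolipoproteins were lower in livers labelled mutant. Of 9 genes, 6 fell (apobb.1, apobb.2, apoa1b, apoa2, apoc1 and mttp, of which apoa2 and mttp turned to 0.04 and 0.48 on the log2 scale when libraries were scaled to hepatocyte genes). apoa1a and apoeb rose, and apoea was not called under TMM scaling but was called higher by library size alone and relative to hepatocyte genes. Those 2 scalings called 4681 and 14540 of all 17048 tested genes higher. With the muscle or skin share of each library as a covariate, apoa1a, apoeb and mttp were no longer called. The skin share closely followed the muscle share, so the 2 covariates are not separate checks. The muscle share itself was 2.86 to 4.84% in control and 4.43 to 6.31% in mutant DMSO libraries. The covariate therefore shares part of its spread with the genotype label, and a lost call cannot be assigned to either. Over all tested genes the muscle covariate called 636 higher and 524 lower. Under TMM scaling without a covariate, 10.4% of all tested genes were called lower and 6.72% higher. The median log2 fold change of the 9 genes was -1.35, against 0.06 for all tested genes. In bulk livers, fewer hepatocytes and less RNA per hepatocyte cannot be told apart. The hepatocyte marker list moved with these genes: 29 of its 34 tested genes fell and 0 rose, with a median of -1.6 on the log2 scale, and fabp10a fell by 1.62 (SE 0.23, edgeR adjusted p = 0.000137). In the same comparison 14 of 21 muscle genes, 4 of 16 skin genes and 4 of 13 intestinal genes rose, and 1 muscle gene fell. The part of tissue makeup in the changes below was not tested beyond the scalings and covariates given further on.

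**Figure D1:**
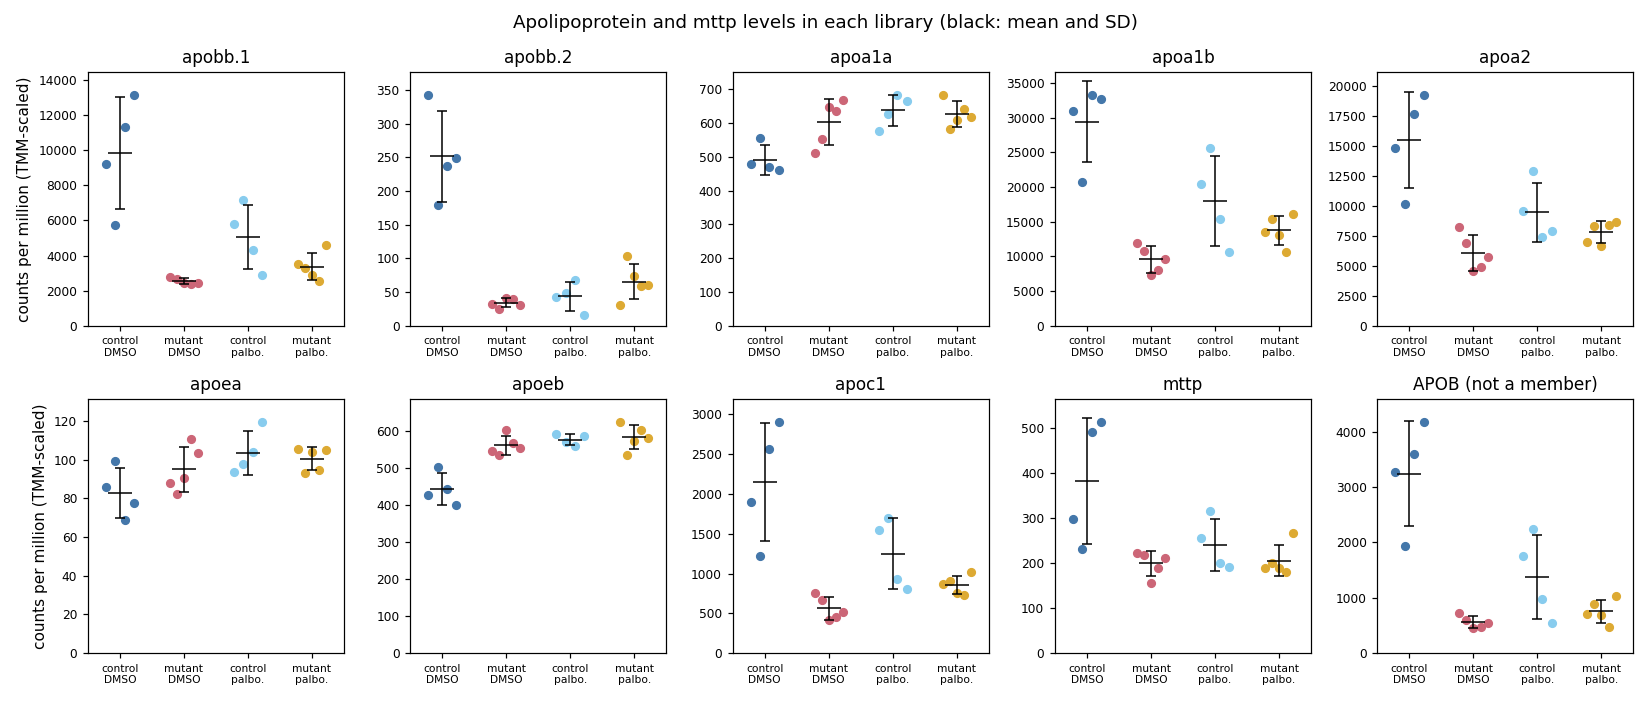
Level of each gene (y axis, TMM-scaled CPM, separate scale per panel, starting at 0) in each library of the 4 groups (x axis); points are libraries, and black marks are the mean and SD of 4 or 5 libraries. For apobb.1, apobb.2, apoa1b, apoa2, apoc1, mttp and APOB every mutant DMSO library lies below every control DMSO library, and for apoeb every mutant DMSO library lies above; scaled to hepatocyte genes, the mean changes of apoa2 and mttp turn positive.

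apobb.2 had the largest fold change of the 9 between genotype labels in DMSO under TMM scaling, and apobb.1 (-1.96) and apoc1 (-1.93) followed. Scaled to hepatocyte genes, apoeb (1.72), apoa1a (1.69) and apoea (1.57) lay further from 0 than apobb.2 (-1.43). Under that scaling the median of all tested genes was 1.44, near the values of apoeb, apoa1a and apoea and far from that of apobb.2. apobb.1 was at 9198, 5737, 11314.5 and 13149.7 CPM in the control DMSO libraries and at 2783, 2659, 2419, 2385 and 2428 CPM in the mutant DMSO libraries. The groups did not overlap, and the mutant libraries lay much closer together than the controls. The means were 9849.7 ± 3182 (SD, n = 4) and 2535 ± 176 (SD, n = 5), a log2 fold change of -1.96 ± 0.26 SE (3.89-fold lower, edgeR adjusted p = 7.54e-05). In palbociclib, apobb.1 was at 5817, 7167, 4321 and 2911 CPM in control and at 3536, 3284, 2918, 2529 and 4590.35 CPM in mutant libraries. These groups overlapped.

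apobb.2, which shares its root symbol with apobb.1, had far fewer counts. It was at 343, 179, 237 and 248 CPM in control DMSO and at 33.0, 25.6, 40.6, 40.4 and 30.4 CPM in mutant DMSO libraries, again without overlap. The log2 fold change was -2.88 ± 0.37 SE (7.36-fold lower, edgeR adjusted p = 4.86e-05), on 79 to 163 counts per mutant library. Unlike apobb.1, it was low in palbociclib in both genotypes: 43.0, 48.0, 68.5 and 16.2 CPM in control and 30.8, 104, 73.2, 59.7 and 60.1 CPM in mutant libraries. Reads shared between apobb.1 and apobb.2 may have been split in counting, a step not described in these sources, so the level of the rarer copy is uncertain.

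APOB, the ID outside the list, fell too. It was at 3262, 1937, 3592 and 4170.2 CPM in control DMSO and at 725, 602, 458, 471 and 537 CPM in mutant DMSO libraries. The groups did not overlap, and the log2 fold change was -2.54 ± 0.36 SE (5.8-fold lower, edgeR adjusted p = 0.00013). In palbociclib it was at 1748, 2239.7, 968 and 548 CPM in control and at 702, 878, 679, 477 and 1037 CPM in mutant libraries, with overlap.

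mttp, whose product loads apolipoprotein B with lipid, fell under TMM scaling and was higher (0.48) when libraries were scaled to hepatocyte genes. It was at 298, 231, 490.3 and 513 CPM in control DMSO and at 223, 218, 156, 189.7 and 211 CPM in mutant DMSO libraries. The groups did not overlap, and control replicate 2 was the lowest control. The log2 fold change was -0.94 ± 0.23 SE (1.92-fold lower, edgeR adjusted p = 0.00909), and the call was lost with the muscle covariate (-0.02, adjusted p = 0.965). In palbociclib the levels were 256, 315, 199 and 192 CPM in control and 189, 201, 189, 180.4 and 267 CPM in mutant libraries.

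The A-I genes went opposite ways. apoa1b, the more highly counted A-I gene, ranked 4 among all IDs by count in every control DMSO library and 5 to 11 in mutant DMSO libraries. It was at 30954, 20750.2, 33251 and 32689 CPM in control and at 11856, 10806, 7297, 8103 and 9688 CPM in mutant DMSO libraries. No mutant library reached the lowest control, and the log2 fold change was -1.62 ± 0.23 SE (3.08-fold lower, edgeR adjusted p = 0.000143). In palbociclib apoa1b was at 20389, 25634, 15327 and 10588 CPM in control and at 13482, 15333, 13042, 10692.5 and 16162 CPM in mutant libraries, and the groups overlapped.

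apoa1a was at 478, 556, 471 and 460.2 CPM in control DMSO and at 510.4, 554, 648, 636 and 668 CPM in mutant DMSO libraries. Control replicate 2 lay above the 2 lowest mutant libraries, so the groups overlapped. The log2 fold change was 0.30 ± 0.08 SE (1.23-fold higher, edgeR adjusted p = 0.00929), and the call was lost with the muscle covariate (0.02, adjusted p = 0.947). In palbociclib its level was 576, 626, 682 and 665 CPM in control and 683, 581, 608, 640.2 and 619 CPM in mutant libraries.

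apoa2, which encodes another protein of high density lipoproteins, fell under TMM scaling but not when libraries were scaled to hepatocyte genes (0.04). It ran from 10183 to 19287.5 CPM in control DMSO (mean 15509 ± 3994, SD, n = 4) and from 4607 to 8241 CPM in mutant DMSO libraries (6094 ± 1502, SD, n = 5), without overlap. The log2 fold change was -1.35 ± 0.22 SE (2.55-fold lower, edgeR adjusted p = 0.000375). In palbociclib it ran from 7445 to 12913 CPM in control and from 6684 to 8664 CPM in mutant libraries.

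Of the apolipoprotein E genes, whose product binds receptors of the LDL receptor family, apoeb rose and apoea was not called under TMM scaling. By library size alone and relative to hepatocyte genes both were called higher. Those 2 scalings also called 4681 and 14540 of all 17048 tested genes higher. In zebrafish apoeb is known from the yolk syncytial layer, skin and microglia as well as from other tissues. It was at 428, 503, 444 and 399 CPM in control DMSO and at 546, 534, 601, 567 and 554 CPM in mutant DMSO libraries, all mutant libraries above all controls. The log2 fold change was 0.34 ± 0.08 SE (1.26-fold higher, edgeR adjusted p = 0.00106), and the call was lost with the muscle covariate (0.18, adjusted p = 0.226). In the same comparison the macrophage list took 0.00281 to 0.00538% of counts in control and 0.0131 to 0.0196% in mutant DMSO libraries. Of its 9 tested genes 4 rose and 0 fell, where 6.72% of all tested genes were called higher. The largest rises in mean CPM, before TMM scaling, were those of cd74a (0.0485 to 60) and cd74b (0.195 to 27). These genes weigh most in the share of the list in mutant DMSO libraries, where the next highest mean was that of ctss2.2 (5.41 to 14.2). csf1ra went from 8.45 to 11.8 and csf1rb from 1.65 to 1.61. In palbociclib the list took 0.004655 to 0.005853% in control and 0.00705 to 0.01764% in mutant libraries, while apoeb was not called (0.02). In control larvae apoeb was called higher in palbociclib than in DMSO, and 0 of the 9 macrophage genes were called. The part of these genes in the apoeb change was not tested. apoea ran from 68.9 to 99.1 CPM in control and from 82.0 to 111 CPM in mutant DMSO libraries, with overlap (log2 fold change 0.20 ± 0.12 SE, edgeR adjusted p = 0.279, 95% interval -0.04 to 0.43). In palbociclib apoeb was at 590.3, 569, 558 and 586 CPM in control and at 623, 535, 574, 601 and 582 CPM in mutant libraries, and apoea ran from 93.5 to 119 CPM in control and from 93.1 to 106 CPM in mutant libraries.

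apoc1, a small exchangeable apolipoprotein that in mammals inhibits lipoprotein remodelling and uptake, fell. It was at 1906, 1219, 2570.4 and 2903 CPM in control DMSO and at 761, 667, 419, 449 and 522 CPM in mutant DMSO libraries, without overlap. The log2 fold change was -1.93 ± 0.28 SE (3.81-fold lower, edgeR adjusted p = 0.000152). Its palbociclib levels were 1553, 1704, 932 and 804 CPM in control and 874, 911, 757, 731 and 1013 CPM in mutant libraries.

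The 9 genes together took 3.92 to 5.3% of all counts in control DMSO, 1.87 to 2.5% in mutant DMSO, 2.59 to 4.24% in control palbociclib and 2.53 to 3.34% in mutant palbociclib libraries. Most of this came from apoa1b, apoa2 and apobb.1. apoa1b made 50.6% ± 2.79 (SD, n = 4) of the summed counts in control and 47.1% ± 1.48 (SD, n = 5) in mutant DMSO libraries. apoa1a made 0.899% ± 0.347 and 3.1% ± 0.819, and apoeb 0.811% ± 0.316 and 2.86% ± 0.624.

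Among larvae that all received palbociclib, 0 of 9 genes were called between the genotype labels by edgeR, where 0.634% of all tested genes were called higher and 0.416% lower. Unadjusted, 1 of the 9 was under 0.05: apobb.1, with a log2 fold change of -0.58 ± 0.26 SE (edgeR adjusted p = 0.477). Of all 17048 tested genes, 1656 were under 0.05 unadjusted. DESeq2 also called 0. With the log2 muscle share as a covariate, edgeR called apoc1 lower (-0.23, adjusted p = 0.0243). Over all tested genes that fit called 280 higher and 165 lower. Without the covariate, the largest difference upward among the 9 was that of apobb.2 (0.56 ± 0.37 SE, 95% interval -0.22 to 1.35, edgeR adjusted p = 0.729). The intervals of apoa1a (-0.19 to 0.14) and apoeb (-0.14 to 0.17) were narrow, while that of apoc1 ran from -1.13 to 0.05.

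Whether palbociclib changed the genotype difference was tested with the interaction of genotype and treatment, taken as the mutant against control difference in palbociclib minus that in DMSO. Only apobb.2 passed among the 9 (3.44 ± 0.52 SE, 95% interval 2.33 to 4.56, edgeR adjusted p = 0.00333), where 1.74% of all tested genes were called higher and 0.252% lower. Its mutant against control difference was -2.88 in DMSO and 0.56 in palbociclib. apobb.1 (1.37 ± 0.37 SE, edgeR adjusted p = 0.0781), apoa1b (1.24 ± 0.33 SE, 0.0767), apoc1 (1.39 ± 0.39 SE, 0.0928) and apoa2 (1.07 ± 0.31 SE, 0.0983) missed the threshold. DESeq2's Wald test called those 4 and apobb.2, and so did the edgeR fit scaled by library size alone. Over all tested genes DESeq2 called 526 higher and 89 lower, and library size alone 248 and 143. With hepatocyte scaling, apobb.2 stayed called (2.18), apoa1a (-1.61), apoeb (-1.58) and apoea (-1.54) were called with a negative interaction, and the median of the 9 was -0.13, where that of all genes was -1.26; under TMM scaling the median of the 9 was 1.07. With the muscle or skin share as a covariate apobb.2 and apoc1 passed, both positive. Over all tested genes the muscle covariate called 113 higher and 77 lower, the skin covariate 134 and 76, and hepatocyte scaling 14 and 10076. Without control DMSO replicate 2, 7 of the 9 genes passed, apoa1a and apoeb with a negative interaction, and without control palbociclib replicate 2, 4 passed. Calls over all tested genes rose too, to 718 higher and 124 lower in the former fit and to 486 and 52 in the latter.

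In larvae labelled control, apobb.2 fell and apoa1a and apoeb rose in palbociclib relative to DMSO. All 4 palbociclib libraries lay below all DMSO libraries for apobb.2 (log2 fold change -2.51 ± 0.39 SE, 5.69-fold lower, edgeR adjusted p = 0.00231) and above them for apoa1a (0.37 ± 0.09 SE, adjusted p = 0.00823) and apoeb (0.38 ± 0.08 SE, adjusted p = 0.0038). These are 3 of 9 genes, where 1.38% of all tested genes were called higher and 4.33% lower. The other 6 were not called: apobb.1 (-0.96 ± 0.28 SE, adjusted p = 0.0557), apoa2 (-0.71 ± 0.23 SE, 0.0861), apoa1b (-0.71 ± 0.25 SE, 0.109), apoc1 (-0.78 ± 0.29 SE, 0.138), mttp (-0.67 ± 0.24 SE, 0.12) and apoea (0.32 ± 0.12 SE, 0.107). DESeq2's Wald test called apobb.1, apoa1b, apoa2 and mttp lower as well, 7 of the 9 in all, and so many were called under library size alone, which added apobb.1, apoa1b and apoa2 lower and apoea higher. Over all tested genes DESeq2 called 351 higher and 947 lower, and library size alone 1079 and 393. Muscle genes moved in the same comparison, 17 of 21 being called higher, and 8 of 34 hepatocyte genes were called lower. Without control DMSO replicate 2 all 9 genes passed, 3 higher and 6 lower, and without control palbociclib replicate 2, 6 passed. Calls over all tested genes rose too, to 608 higher and 1411 lower in the former fit and to 339 and 988 in the latter. In a fit of only the 2 groups compared, apobb.2 alone stayed called, and apoa1a (0.41, adjusted p = 0.0692) and apoeb (0.41, adjusted p = 0.0651) did not. With the muscle share as a covariate 0 passed, the estimate for apobb.2 staying at -2.2. Over all tested genes that fit called only 30 higher and 16 lower. The muscle share was 2.86 to 4.84% in control DMSO and 4.2 to 6.26% in control palbociclib libraries. The covariate therefore shares part of its spread with treatment, and a lost call cannot be assigned to either. Scaled to hepatocyte genes, apobb.2 stayed called at -1.74, and apoa1b, apoa2 and mttp turned to 0.04, 0.11 and 0.16. Under that scaling apoa1a (1.22), apoeb (1.21) and apoea (1.18) were called higher. The median of all genes was then 0.81, with 7523 of 17048 called higher and 51 lower.

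In larvae labelled mutant, palbociclib made no call among the 9 genes with edgeR or DESeq2, where 0.0411% of all tested genes were called higher and 0.499% lower. apobb.2 was at 0.94 ± 0.35 SE (edgeR adjusted p = 0.436), apoc1 at 0.60 ± 0.26 SE (0.526) and apoa1b at 0.53 ± 0.22 SE (0.504), the 3 of the 9 with an unadjusted p under 0.05. Of all 17048 tested genes, 1502 had an unadjusted p under 0.05. With the log2 muscle share of each library as a covariate, apoa1b (0.65), apoa2 (0.50) and apoc1 (0.78) were called higher. Calls over all tested genes rose as well in that fit, to 208 higher and 159 lower. Scaled to hepatocyte genes, none of the 9 was called, apoa1a (-0.39), apoea (-0.36), apoeb (-0.37) and mttp (-0.38) turned negative, and the smallest changes of apoa2 (-0.01) and apobb.1 (-0.03) changed sign. The median of all genes was then -0.43, with 2 genes called higher and 349 lower.

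Mutant larvae in palbociclib were also compared with control larvae in DMSO, a comparison that shares its libraries with the others. The calls were 2 higher (apoa1a and apoeb) and 6 lower among the 9 genes, where 6.23% of all tested genes were called higher and 10.3% lower. apobb.2 was at -1.94 ± 0.35 SE (edgeR adjusted p = 0.00132), apobb.1 at -1.55 ± 0.26 SE (0.000771), apoc1 at -1.33 ± 0.28 SE (0.00369), apoa1b at -1.10 ± 0.23 SE (0.00405), apoa2 at -0.99 ± 0.22 SE (0.00505) and mttp at -0.90 ± 0.23 SE (0.0129). The mttp groups overlapped, and its call was lost without control DMSO replicate 3 (-0.76, adjusted p = 0.0571) or replicate 4 (-0.73, adjusted p = 0.062). With the muscle or skin share as a covariate 0 of the 9 were called, and the median of the 9 moved from -0.99 to -0.02 and -0.09. The muscle share was 2.86 to 4.84% in control DMSO and 5.2 to 6.15% in mutant palbociclib libraries, without overlap. The skin share did not overlap either (0.479 to 0.83% and 0.856 to 1.03%). These fits therefore cannot separate the group from the share, and a lost call cannot be assigned to either. Over all tested genes the muscle covariate called 302 higher and 190 lower, and the skin covariate 320 and 255. With hepatocyte scaling, apobb.2 (-0.99) and apobb.1 (-0.54) stayed called lower, apoa1a (1.3), apoeb (1.34) and apoea (1.21) were called higher, apoa1b (-0.12) and apoc1 (-0.31) were not called, and apoa2 (0.02) and mttp (0.11) turned positive. Under that scaling the median of all genes was 1, with 10951 of 17048 called higher and 223 lower.

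How much of the DMSO difference between genotype labels remains depends on what the libraries are scaled to. Scaling by library size alone moved the median of all genes to 0.42, and scaling to the summed hepatocyte list moved it to 1.44. The same 2 scalings changed the calls over all genes from 1145 higher and 1772 lower to 4681 and 1027, and to 14540 and 170. Relative to hepatocyte genes, the mutant libraries were still lower for apobb.2 (-1.43), APOB (-1.13), apoc1 (-0.53) and apobb.1 (-0.52), all called, while apoa1b was at -0.24 and not called. apoa2 turned to 0.04 and mttp to 0.48, and apoa1a (1.69), apoeb (1.72) and apoea (1.57) were higher, all but apoa2 past the threshold. The hepatocyte list holds FGB, fga, FGG and CP, whose mean CPM before TMM scaling was higher in mutant than in control DMSO libraries. The means went from 1190 to 1440, 1390 to 1520, 1030 to 1450 and 523 to 589. Of the 34 tested genes of the list, 29 were called lower under TMM scaling. Scaling to the list without those genes was not tested.

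**Figure D2:**
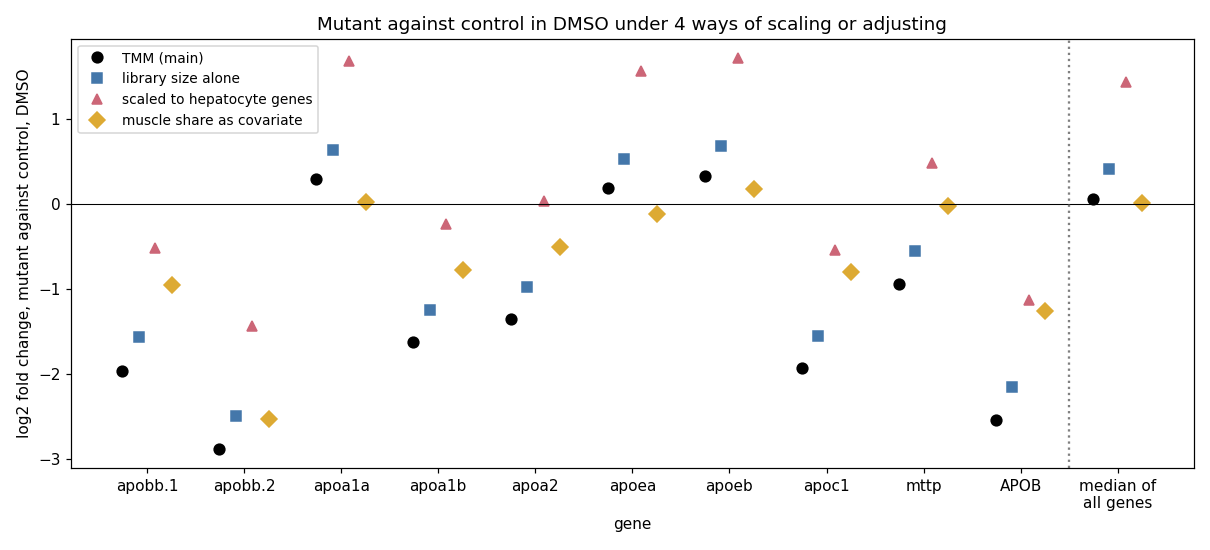
log2 fold change of mutant against control libraries in DMSO (y axis) for each gene and for the median of all tested genes (x axis) under 4 ways of scaling or adjusting (symbols). apobb.1, apobb.2, apoc1, apoa1b and APOB lie below 0 under all 4, whereas apoa2 and mttp lie above 0 when libraries are scaled to hepatocyte genes, and apoea lies below 0 with the muscle share as a covariate.

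With the log2 muscle share as a covariate 5 genes remained lower: apobb.2 (-2.53), apobb.1 (-0.96), apoc1 (-0.79), apoa1b (-0.78) and apoa2 (-0.51). A skin share covariate, added after the data were seen, gave the same 5 (apobb.2 at -2.6). It is not a separate check, because the skin share closely followed the muscle share over the libraries. The 2 shares were 0.4794% and 2.863% in control DMSO replicate 4, and 1.055% and 6.308% in mutant DMSO replicate 3. Leaving out any 1 of the 18 libraries kept all 8 calls of the DMSO comparison.

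Levels also followed the muscle share within groups. With group means removed, over 18 libraries that share tissue makeup as well as depth, the correlation of log2 CPM with the muscle share was -0.97 for apoc1, -0.95 for apoa2, -0.91 for mttp, -0.89 for apoa1b and -0.87 for apobb.1. It was 0.80 for apoa1a, 0.72 for apoea and 0.69 for apoeb. apobb.2 stood apart, at -0.29.

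**Figure D3:**
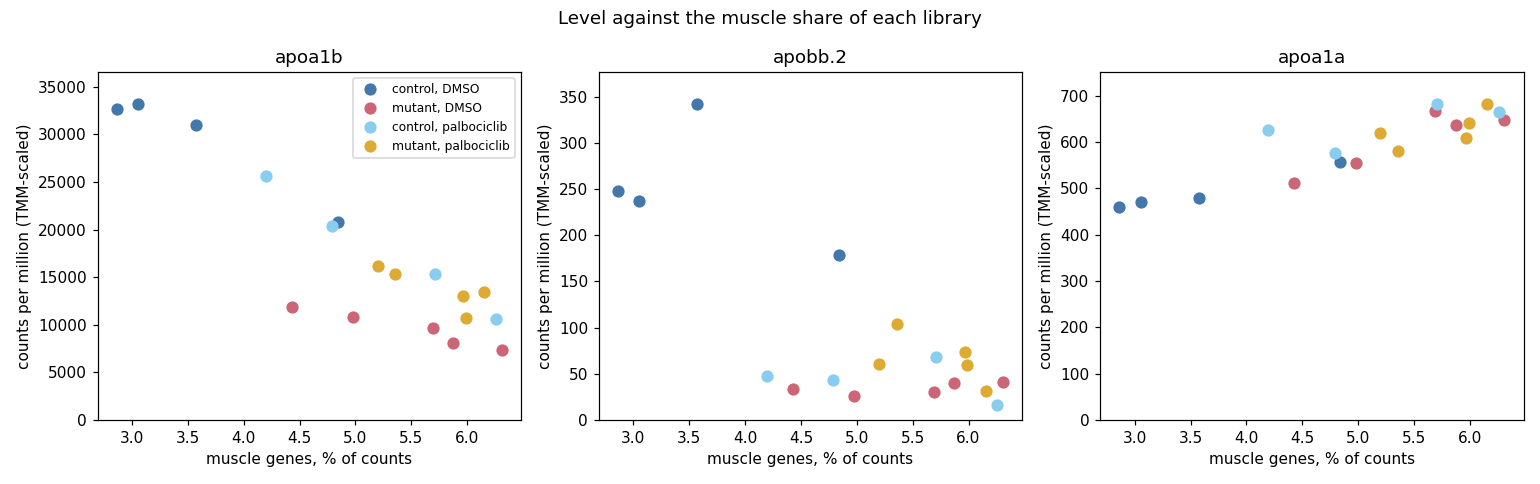
Level of apoa1b, apobb.2 and apoa1a (y axes, TMM-scaled CPM) against the share of all counts on muscle genes (x axis, %) in each of 18 libraries; colours are the groups. apoa1b declines and apoa1a climbs with the muscle share across groups under this scaling, while apobb.2 is at 179 or more in the 4 control DMSO libraries and at most 104 elsewhere.

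The same split appeared between the genes. With group means removed, apobb.1, apoa1b, apoa2, apoc1 and mttp correlated with each other at 0.73 to 0.92 over the 18 libraries. apoa1a, apoea and apoeb correlated with each other at 0.44 to 0.70 and with those 5 at -0.77 to -0.48. apobb.2 correlated with the same 5 at 0.12 to 0.38. The genes whose level over all 18 libraries was most like that of each were drawn from 11880 candidates by Pearson's r of log2 CPM. apoa1a was most like pvalb1 (0.96), krt1-19e (0.96) and pvalb2 (0.95), of which pvalb1 and pvalb2 are in the muscle list. apoeb was most like col5a3b, MATN4 and COL9A1 (0.925 to 0.931), and apoea like scg2b (0.89), crybb1l2 (0.88) and krt1-19e (0.86). apoa1b was most like hpda, itih3b.2 and SERPINC1 (all 0.99), and apobb.1 like IGFBP2 and ABAT (both 0.99). For apoa2 the genes were SLC37A4, ABCA1 and ABCB11 (0.97 each), for apoc1 SLC37A4, ABCA1 and LPL (0.98 to 0.99), for mttp HSPD1 (0.97), SEC61A1 and kynu (0.96), and for apobb.2 nr5a5 (0.89), NCOR1 (0.89) and ces3 (0.88).

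Ratios between genes of a library do not depend on how the library is scaled, but they can differ with tissue makeup. With group means removed, apoa1a correlated with the muscle share at 0.80 and apoa1b at -0.89. The part of tissue makeup in the ratios was not tested. 5 ratios were compared in 4 contrasts, with exact two-sided permutation tests and p-values adjusted over the 20 tests. Under DMSO alone, the 4 control libraries had a mean log2 ratio of apoa1a to apoa1b of -5.88 ± 0.45 (SD) and the 5 mutant libraries one of -3.97 ± 0.43 (SD), a difference of 1.91 (exact permutation p = 0.00794, adjusted p = 0.0397). The 2 groups did not overlap. apobb.2 to apobb.1 was lower by a difference of -0.97, mttp to apobb.1 higher by 1.02, and APOB to apobb.1 lower by -0.61, each without overlap and with the same exact p, the smallest the design allows. apoea to apoeb differed by -0.14 (exact permutation p = 0.254).

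**Figure D4:**
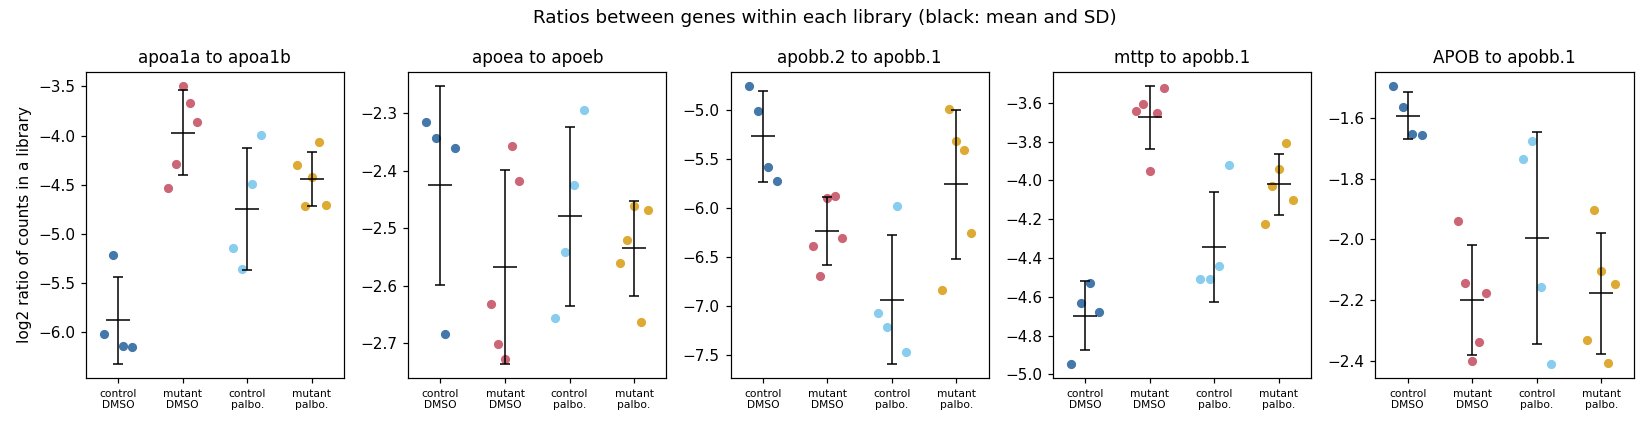
log2 ratio of the counts of 2 genes of the same library (y axis) in each library of the 4 groups (x axis); points are libraries, and black marks are the mean and SD. Mutant and control DMSO libraries are separate for all ratios but apoea to apoeb, and apobb.2 to apobb.1 is lowest in control libraries treated with palbociclib.

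In control larvae, palbociclib moved apobb.2 to apobb.1 by -1.67 on the log2 scale, APOB to apobb.1 by -0.40 and mttp to apobb.1 by 0.35, without overlap, but each exact permutation p of 0.0286 was the smallest the design allows and became 0.0714 after adjustment. In palbociclib, apobb.2 to apobb.1 was higher in mutant than in control libraries by 1.18 (exact permutation p = 0.0476, adjusted p = 0.106), with overlap. None of the 15 ratio comparisons outside genotype in DMSO passed the adjustment.

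apoeb, apoc1 and apoa2 are neighbours in a cluster of apolipoprotein genes in the RefSeq order of GRCz12tu, which runs apoa4b.1, apoa4b.3, apoa4b.2, apoeb, apoc1, apoc4, apoa2, apoc2, with unnamed loci between the apoa4b genes. Within it apoeb rose in mutant DMSO libraries while apoc1 beside it and apoa2 fell. apoc2, whose product activates lipoprotein lipase, fell by 0.98 (SE 0.23, edgeR adjusted p = 0.00759), apoa4b.1 fell by 1.21 (SE 0.27, adjusted p = 0.00551) and apoa4b.2 fell by 0.33 (SE 0.10, adjusted p = 0.0168). The apoa4b.2 groups overlapped, and by library size alone it was at 0.04 and not called (edgeR adjusted p = 0.825). apoa4b.3 (-0.04, adjusted p = 0.911) and apoc4 (-1.29, adjusted p = 0.0748) were not called. apoea lies elsewhere, beside apoa4a (0.24, adjusted p = 0.585).

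Further genes of lipid transport were described from 4 lists, whose direction depended on the scaling. Scaled to hepatocyte genes, the median of every list was positive (1.08 for other apolipoproteins, 0.92 for assembly and secretion, 1.55 for receptors, 0.36 for remodelling), where the median of all genes was 1.44. The first counts of each list are under TMM scaling, where 10.4% of all tested genes were called lower and 6.72% higher. Of all 17048 tested genes, hepatocyte scaling called 14540 higher and 170 lower. Library size alone called 4681 higher and 1027 lower, and the muscle covariate 636 and 524. Of 11 other apolipoprotein genes tested, 4 fell and 1 rose in mutant DMSO libraries: the 3 named above and apom, a lipid carrier of high density lipoproteins (-1.03 ± 0.22 SE, edgeR adjusted p = 0.00444), fell, and the riser was apoda.1 (1.13, adjusted p = 0.0205), named after its value was seen. The list's median was -0.34. Scaled to hepatocyte genes, 0 of the 11 were lower and 7 were higher, apom (0.32), apoa4b.1 (0.20), apoc2 (0.47) and apoa4b.2 (1.08) all turning positive, and with the muscle share as a covariate 0 were called.

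Of 32 genes for lipoprotein assembly and secretion, 15 fell and 2 rose under TMM scaling (median -0.49). Relative to hepatocyte genes, where most of all tested genes were called higher, 0 were lower and 22 higher. With the muscle covariate 3 were lower and 3 higher. sar1b, the GTPase that starts COPII coats for export from the endoplasmic reticulum, fell by 1.01 (SE 0.13, edgeR adjusted p = 6.26e-07). The coat components SEC23B (-1.21, adjusted p = 0.000272) and SEC24D (-0.98, adjusted p = 0.000317) fell as well. DGAT2, which completes triglyceride synthesis, fell by 1.66 (SE 0.21, adjusted p = 3.07e-05), and SOAT2, which esterifies cholesterol, by a log2 change of -0.98 (adjusted p = 0.0369). SOAT2 had 11 to 37 counts per mutant DMSO library, its groups overlapped, and its call was lost by library size alone (-0.60, edgeR adjusted p = 0.176). CIDEC, a lipid droplet protein, was at 1.06 and not called under TMM scaling (adjusted p = 0.184), but was called higher by library size alone (1.43, adjusted p = 0.0318), relative to hepatocyte genes (2.42) and with the muscle covariate (2.56, adjusted p = 0.0211). These CIDEC values rest on only 3 to 19 counts per control and 9 to 30 per mutant DMSO library, and the groups overlapped. sar1b also had a called interaction with treatment (0.74 ± 0.19 SE, adjusted p = 0.0327). Relative to hepatocyte genes DGAT2 stayed negative but was not called (-0.22), and sar1b (0.40), SEC23B (0.22), SEC24D (0.43) and SOAT2 (0.51) turned positive. With the muscle covariate sar1b (-0.43), DGAT2 (-0.77) and SOAT2 (-1.74) were called lower, and SEC23B (-0.58) and SEC24D (-0.33) were not called.

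Of 15 receptors and uptake proteins, 1 fell and 1 rose under TMM scaling (median 0.14), near the shares over all genes. Against hepatocyte genes, where most of all tested genes were called higher, 1 was lower and 13 higher. By library size alone 1 was lower and 8 higher, and with the muscle covariate 1 was lower and 0 higher. ldlra, an LDL receptor gene, fell 4.72-fold (log2 fold change -2.24 ± 0.23 SE, edgeR adjusted p = 5.12e-06), from a mean of 285 ± 60.8 (SD, n = 4) to 60.2 ± 6.98 (SD, n = 5) CPM, and stayed called when scaled to hepatocyte genes (-0.81) or with the muscle covariate (-1.47). stab2, a scavenger receptor of endothelial cells, rose (1.07 ± 0.35 SE, adjusted p = 0.0294) at means of 4.23 and 9.03 CPM, and the groups overlapped. Its call was lost with the muscle covariate (0.995, edgeR adjusted p = 0.304). Of the 11 genes of a fixed endothelial list, which includes stab2, 4 fell and the only 1 that rose was stab2 itself (median -0.29). CUBN (0.41, adjusted p = 0.0753) and amn (1.05, adjusted p = 0.108), partners in an endocytic receptor, were not called, nor were LRP8 (0.35) or lsr (0.13); all 4 were called higher by library size alone and relative to hepatocyte genes, and none with the muscle covariate.

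Among 17 genes for lipoprotein remodelling and cholesterol efflux, 10 fell and 1 rose under TMM scaling (median -1.04). Under hepatocyte scaling, where most of all tested genes were called higher, 2 were lower and 8 higher. With the muscle covariate 3 were lower and 0 higher. CETP, which exchanges lipids between particles, fell by 2.07 (SE 0.21, edgeR adjusted p = 1.21e-07) and had a called interaction (1.53 ± 0.30 SE, adjusted p = 0.00651). LPL, which hydrolyses particle triglyceride, fell by 1.77 (adjusted p = 5.08e-05). pon2, a paraoxonase, fell by 1.42 (adjusted p = 0.000229), and PLA2G7, a lipoprotein-bound phospholipase, was not called (-0.15). CETP (-0.64) stayed called lower relative to hepatocyte genes, while LPL (-0.36) and pon2 (-0.01) did not. With the muscle covariate CETP (-1.50) and LPL (-0.87) stayed called and pon2 (-1.03) did not. In palbociclib, 0 genes of the 4 lists were called between genotype labels, where 0.634% of all tested genes were called higher and 0.416% lower. In mutant larvae 0 were called between treatments, where 0.0411% of all were higher and 0.499% lower. With shares this low, 0 calls do not set the lists apart from other genes. Not called between treatments in mutant larvae were pon2 (0.73, edgeR adjusted p = 0.387), SOAT2 (0.83, 0.394), apom (0.53, 0.466), lsr (-0.36, 0.453) and LRP8 (0.40, 0.521).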

How the data were processed

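Per the labels' protocols, ribosomal RNA was removed before library preparation; Trimmomatic 0.36 (trimming) and FastQC 0.11.5 (read quality) are the tools named in the submitters' processing notes. The authors deposited raw counts per Ensembl gene ID for each of 18 libraries. Neither aligner, counter, strand setting, build nor annotation is stated in these sources; overlapping genes and near-identical copies may share reads. Symbols came from the names table of the reference.

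Counts were filtered with filterByExpr (17048 of 32105 IDs kept), scaled with TMM, and fitted with edgeR 4.0.16 in R 4.3.3 (quasi-likelihood, robust, a mean per group over all libraries). Genes were called at a Benjamini-Hochberg adjusted p below 0.05 over all tested genes, with no minimum change. Fold changes are edgeR's; levels are TMM-scaled CPM. Ratios used counts plus 0.5 and exact permutation of libraries. The scripts were tested on simulated data. DESeq2 1.42.0, other scalings, covariates, the replicate block and leaving out libraries were alternatives. The planned ratio of apoba to apobb.1 could not be computed; APOB took its place.

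The members and lists were chosen with earlier results of these data known. Named genes were all members, uhrf1, fabp10a, the members' nearest neighbours, the 3 genes most like each member, and from each list the 4 genes with the smallest adjusted p for genotype in DMSO and the 2 for treatment in mutant larvae. A few genes the rule names are not reported here. Same-numbered libraries did not deviate together (correlations -0.17 to 0.05 over 24 pairs, 0 over 0.1), so numbers were not taken as pairs.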

Additional observations from a re-analysis of the deposited data

Results flagged for a closer look

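Of 40 sets of levels (10 genes in 4 groups) checked for a library far from the rest of its group, 1 stood apart: mttp in mutant palbociclib replicate 5, at 267.2 CPM against a next highest of 201 CPM in its group. Chance gives about 1 such case in 20 sets.

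apobb.2 was picked out because its mutant against control difference was not the same in the 2 treatments, by an interaction of 3.44 on the log2 scale. The difference was -2.88 in DMSO and 0.56 in palbociclib.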

How the results depend on the processing

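Depth bore most on apobb.2, with 60 counts in its lowest library; the other members had 269 or more. Over all genes tested, scaling by library size alone gave 5708, 300, 1472, 141 and 5276 calls for genotype in DMSO, genotype in palbociclib, treatment in control, treatment in mutant and the last comparison (treated mutant with untreated control), against 2917, 179, 973, 92 and 2825. It called 7 members for treatment in control, 1 for treatment in mutant and 5 for the interaction. Scaling to hepatocyte genes gave 14710 calls for genotype in DMSO, 7574 and 351 for treatment in control and mutant, 10090 for the interaction and 11174 for the last comparison, with 4 members for the interaction and 5 for the last comparison. Under it apoa2 (0.0367) and mttp (0.483) reversed for genotype in DMSO and (0.0234 and 0.108) in the last comparison, where mttp also reversed with the muscle (0.128) and skin (0.0714) covariates. The causes were not tested. Adjusted for the muscle share, 5, 1, 0, 3, 2 and 0 members and 1160, 445, 46, 367, 190 and 492 genes were called for genotype in DMSO, genotype in palbociclib, treatment in control, treatment in mutant, the interaction and the last comparison. With the skin share, 5, 0, 0, 3, 2 and 0 members and 1329, 466, 46, 347, 210 and 575 genes were called. DESeq2's Wald test called 336 genes for genotype in palbociclib, 164 for treatment in mutant, 615 for the interaction, 7 members for treatment in control and 5 for the interaction. Using only the groups compared left 1 member and 351 genes for treatment in control and gave 181 genes for treatment in mutant. The replicate block gave 111, 264, 59 and 134 genes for genotype in palbociclib, treatment in control, treatment in mutant and the interaction; in it the calls of mttp in the last comparison and of apoa1a for treatment in control were lost and no other member call changed. Of all calls, 39.3% were higher for genotype in DMSO, 60.3% for genotype in palbociclib, 24.2% and 7.61% for treatment in control and mutant, 87.4% for the interaction and 37.6% for the last comparison. Library size alone made these 82%, 64%, 73.3%, 25.5%, 63.4% and 81%, and hepatocyte scaling 98.8%, 83.8%, 99.3%, 0.57%, 0.139% and 98%.

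Leaving out 1 library at a time gave 96 to 318 genes for genotype in palbociclib (lowest without control palbociclib replicate 2, highest without replicate 5), 272 to 2019 genes and 3 to 9 members for treatment in control, 39 to 116 genes for treatment in mutant (lowest without mutant DMSO replicate 1), 168 to 842 genes and 1 to 7 members for the interaction, and 1862 to 3526 genes for the last comparison. The highest count of the last 4 came without control DMSO replicate 2, and the lowest of treatment in control, the interaction and the last comparison without control DMSO replicate 4. Log2 ratio differences ran from -0.62 to -0.36 for apoa1a to apoa1b, treatment in mutant; from 0.99 to 1.499, -1.99 to -1.49 and 0.28 to 0.75 for apobb.2 to apobb.1, genotype in palbociclib, treatment in control and treatment in mutant; from 0.27 to 0.46 and 0.21 to 0.41 for mttp to apobb.1, genotype in palbociclib and treatment in control; and from -0.51 to -0.26 for APOB to apobb.1, treatment in control.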
